A study of Homo sapiens with 18 samples.

Results

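A set of 78 genes gave almost no reads in OCI-Ly1 lymphoma cells kept with vehicle and gave reads in every library of the same cells given 500 nM JIB-04. The genes were chosen by their counts in the OCI-Ly1 table. A member had at most 3 estimated counts in each of 3 DMSO libraries and at least 10 in each of 3 libraries at 500 nM, and symbols beginning MT1 (metallothioneins) were left out, which removed MT1E and MT1G. Of 23686 gene symbols, 6759 were silent in this sense with DMSO, and the 78 members were 1.15% of those. The reverse pattern, at least 10 counts in each DMSO library and at most 3 in each at 500 nM, was met by 1 gene, CD1C, with counts of 24, 20 and 13 with DMSO and 2, 0 and 2 at 500 nM. CD1C encodes a lipid antigen-presenting surface molecule.

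OCI-Ly1 and TMD8 are established lines of human diffuse large B-cell lymphoma, and JIB-04 is a small-molecule inhibitor of JmjC-domain histone demethylases. Each line had 3 groups of 3 RNA-seq libraries: cells with 0.01% DMSO as vehicle, cells with 150 nM JIB-04 and cells with 500 nM JIB-04. Each line is 1 cell line without a drug-free, vehicle-free group, the labels give no treatment time, and the medium was IMDM for OCI-Ly1 but RPMI for TMD8, so line and medium cannot be told apart. The libraries are technical triplicates per the labels, and nothing says that they came from separate cultures, so p-values measure only the spread between libraries. Library totals were 17579732 to 32651115 estimated counts in OCI-Ly1 and 9550092 to 20509500 in TMD8. The B-cell markers of a list of 7 (MS4A1, CD79A, CD79B, PAX5, CD22, BLK and EBF1) summed to between 1303 and 1487 CPM (counts scaled to 1000000 per library) in the 9 OCI-Ly1 libraries.

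Genes that a cell type does not use are commonly held in closed chromatin. Methylated lysine 9 or lysine 27 of histone H3, DNA methylation at the promoter, and the lack of an activating transcription factor can each accompany silence. JmjC demethylases remove methyl groups from histone lysines, and several of them act on histone H3 lysine 9, the mark of heterochromatin. Silent genes can also be switched on by stress pathways, since stress-induced transcription factors such as ATF4 and CHOP bring up genes that resting cells barely transcribe.

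Promoter stretches are shown for 4 members that are described in detail below, because each holds a motif of a class that was searched in the 47 member promoters at hand. They come from RefSeq on build GRCh38.p14 and are written 5′ to 3′ on the strand of the gene. The capitals mark the match to the ATF4 and CHOP composite element (TGATGNAA on either strand) in ALPK2 and KLHDC7B, and to the TATA box (TATAAA) in GDF15 and NPPC.
ALPK2, chr18:58629116-58629235, minus strand: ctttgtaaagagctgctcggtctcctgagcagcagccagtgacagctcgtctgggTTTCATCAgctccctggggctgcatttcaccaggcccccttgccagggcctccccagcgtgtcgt
KLHDC7B, chr22:50545693-50545812, plus strand: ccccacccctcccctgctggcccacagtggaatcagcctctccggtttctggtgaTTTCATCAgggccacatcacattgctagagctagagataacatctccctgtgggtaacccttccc
GDF15, chr19:18386074-18386157, plus strand: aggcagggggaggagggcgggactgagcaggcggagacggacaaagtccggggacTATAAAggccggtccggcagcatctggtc
NPPC, chr2:231926397-231926480, minus strand: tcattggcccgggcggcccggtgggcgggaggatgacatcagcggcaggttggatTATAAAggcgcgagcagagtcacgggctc
A 5th stretch is the hairpin of MIR4651, chr7:75915197-75915269, plus strand, shown in RNA letters because it is 1 of 2 microRNA loci among the members: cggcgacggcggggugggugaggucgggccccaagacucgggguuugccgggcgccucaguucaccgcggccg

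Silent genes that came on in OCI-Ly1 were mostly protein-coding and mostly stayed at low levels. By RefSeq annotation 69 members were protein-coding, 4 were pseudogenes and 2 were microRNA loci, and 3 symbols (ADC, LOC283070 and LOC284648) matched no single RefSeq gene. The 4 pseudogenes are DUX4L2, DUX4L3, DUX4L5 and DUX4L6, near-identical copies of a repeated double-homeobox unit whose counts were identical in every OCI-Ly1 library, so that 75 separate signals remain when they are counted once. Over all 3 DMSO libraries the 78 genes together had 191 counts, and 19 of them had 0 counts in all 3. At 500 nM only 3 members averaged 100 or more counts, 37 averaged under 20, and the median member averaged 20.5. On the length-scaled measure, TPM (transcripts scaled to 1000000 per library), 21 members averaged 1 or more at 500 nM and the median was 0.543.

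The members' summed level was 3.09, 2.51 and 2.82 CPM in the 3 DMSO libraries of OCI-Ly1, 12.1, 10.2 and 9.55 CPM in the 3 libraries at 150 nM, and 97.2, 96.5 and 86.0 CPM in the 3 at 500 nM. The CPM use library sizes after TMM scaling. No library of a group overlapped with another group, but the rule chose the members on the DMSO and 500 nM libraries, so that this difference is a description. The 500 nM libraries were also deeper, with a mean total of 28809300 counts against 22826600 with DMSO. When counts were scaled to the mean library total before the rule was applied, 63 genes met it, and 60 of those were among the 78. In bulk RNA, more cells that use a gene and more RNA of it per cell cannot be told apart.

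**Figure D1:**
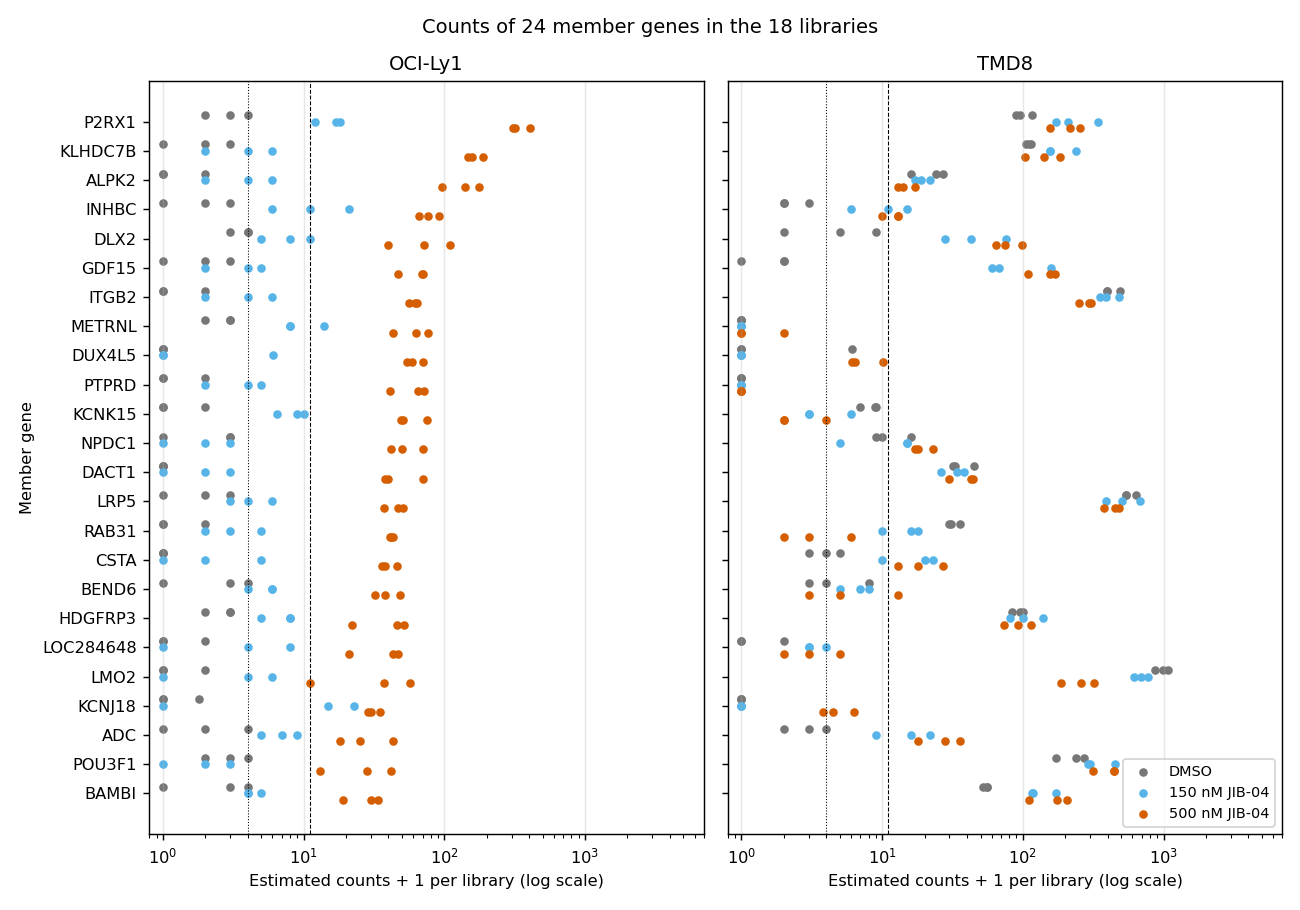
Estimated counts plus 1 (log scale) of 24 members in each of the 9 OCI-Ly1 libraries (left) and 9 TMD8 libraries (right), 1 point per library, in order of mean CPM at 500 nM in OCI-Ly1; the 4 DUX4L copies are shown as DUX4L5. The dotted and dashed lines stand at 3 and 10 counts; DMSO points lie at or left of the dotted line in OCI-Ly1 by the rule.

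Ion channels gave the highest member. P2RX1, an ATP-gated cation channel, had 1, 2 and 3 counts with DMSO, then 16, 17 and 11 at 150 nM and 405, 319 and 304 at 500 nM. The 3 groups did not overlap. Its level at 500 nM was 5.78 ± 0.614 TPM (SD, n = 3), the highest of the protein-coding members, and the ratio of its summed CPM to that with DMSO was 128 (exact 95% counting interval 58.6 to 350, counting error only). KCNK15, a two-pore-domain potassium channel, had 0, 0 and 1 counts with DMSO, then 7.9, 9.1 and 5.5 at 150 nM and 74.7, 50.1 and 47.8 at 500 nM. KCNJ18, an inward-rectifier potassium channel with near-identical relatives in the genome, had 0, 0.8 and 0 counts with DMSO, then 21.9, 0 and 13.9 at 150 nM and 29, 33.6 and 27.7 at 500 nM, so its 150 nM libraries fell on both sides of the rule. Reads of such relatives may have been divided between genes, and the KCNJ18 values are uncertain for that reason. CACNA1D, a voltage-gated calcium channel subunit, had 0 counts in all 3 DMSO libraries and 18, 15 and 21 at 500 nM.

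Kinases and other intracellular signalling proteins made up 13 members. ALPK2, an alpha-kinase, had 0, 1 and 0 counts with DMSO, then 3, 1 and 5 at 150 nM and 175, 95 and 138 at 500 nM. All 500 nM libraries stood far above the other 6, and at 150 nM 1 library lay within the DMSO range. RAB31, a small GTPase of vesicle transport, had 1, 0 and 0 counts with DMSO and 42, 41 and 40 at 500 nM. Others were the MAP kinase phosphatase DUSP8, the adaptor GRB10 and the Wnt pathway antagonist DACT1, and means at 500 nM ran from 0.102 to 1.76 TPM over the class.

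Secreted and membrane-bound signals were 9 of the members. GDF15, a stress-induced cytokine of the TGF-beta superfamily, had 1, 2 and 0 counts with DMSO, then 3, 1 and 4 at 150 nM and 70, 46 and 68 at 500 nM. INHBC, an inhibin beta subunit of the same superfamily, had 2, 1 and 0 counts with DMSO, then 10, 20 and 5 at 150 nM and 91, 65 and 76 at 500 nM, with no overlap between any of the 3 groups. METRNL, a secreted protein related to meteorin, had 2, 1 and 2 counts with DMSO, then 13, 7 and 7 at 150 nM and 76, 62 and 42 at 500 nM. The chemokine CXCL10, a ligand of CXCR3, had 0 counts in all 6 libraries with DMSO or 150 nM and 25, 14 and 16 at 500 nM. A count of 0 over the DMSO group allows up to 3 counts, against which its level at 500 nM was 13.7-fold higher, without counting error at 500 nM. NPPC, the C-type natriuretic peptide, had 0, 0 and 1 counts with DMSO, then 0, 1 and 0 at 150 nM and 13, 22 and 13 at 500 nM. DLL4, a Notch ligand, had 0 counts in all 3 DMSO libraries, 2, 1 and 1 at 150 nM and 18, 29 and 17 at 500 nM. The vasoconstrictor EDN2, the growth factor GDF7 and C1QL1 completed the class, each at a mean under 1 TPM at 500 nM.

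Transcription factors and cofactors were 10 of the members, mostly factors of development and cell identity. DLX2, a homeobox factor of forebrain and jaw development, was the most abundant of them in CPM, with 2, 3 and 3 counts with DMSO, then 7, 4 and 10 at 150 nM and 109, 39 and 71 at 500 nM. POU3F1, a POU-domain factor of Schwann cells and skin, had 2, 3 and 1 counts with DMSO, then 1, 0 and 2 at 150 nM and 41, 27 and 12 at 500 nM. FOXD1, a forkhead factor of kidney stroma, had 2, 1 and 1 counts with DMSO and 11, 25 and 26 at 500 nM. TP63, the p53 relative that marks basal epithelium, had 1, 0 and 0 counts with DMSO and 21, 22 and 18 at 500 nM. LMO2, a LIM-domain cofactor of blood progenitors and germinal-centre B cells, was the most uneven, with 56, 10 and 36 counts at 500 nM after 1, 0 and 0 with DMSO. The second of those libraries sits on the threshold of 10. Others of the class were DLX3, TBX21, ETV5 and SCRT1.

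Surface receptors and other membrane proteins were 10 of the members and matrix proteins 4. ITGB2, the beta-2 integrin chain of leukocytes, had 1, 0 and 0 counts with DMSO, then 1, 3 and 5 at 150 nM and 63, 61 and 55 at 500 nM. CAV1, the main structural protein of caveolae, had 2, 0 and 0 counts with DMSO and 30, 18 and 22 at 500 nM. PTPRD, a receptor tyrosine phosphatase, had 1, 0 and 0 counts with DMSO and 64, 40 and 71 at 500 nM, and stood at 0.284 ± 0.0708 TPM (SD, n = 3), a measure that is divided by transcript length. COL21A1, a fibril-associated collagen, had 0 counts with DMSO, then 0, 0 and 1 at 150 nM and 22, 16 and 21 at 500 nM. HAPLN3, a hyaluronan link protein, had 1, 2 and 0 counts with DMSO and 16, 23 and 17 at 500 nM. All 4 matrix members, with NCAN and FRAS1, had at most 3 counts in each library at 150 nM.

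KLHDC7B, a kelch-domain protein, was the next most abundant member after P2RX1, with 2, 0 and 1 counts with DMSO, then 3, 5 and 1 at 150 nM and 186, 155 and 145 at 500 nM. CSTA, the protease inhibitor cystatin A, had 0 counts with DMSO and 45, 37 and 35 at 500 nM, and its 2.67 ± 0.295 TPM (SD, n = 3) lay within the spread of that of GDF15, 2.67 ± 0.303 TPM. HIST1H1T, the linker histone of testis, had 1, 1 and 3 counts with DMSO and 24, 25 and 26 at 500 nM. Because ITGB2 and CSTA are used by myeloid cells, 10 other myeloid markers were read in the same libraries. They summed to 1.94 to 2.58 CPM with DMSO and 1.30 to 2.18 CPM at 500 nM, and 6 of the 10 had at most 3 counts in all 9 libraries, with S100A8, S100A9 and MPO at 0 throughout. Of 10 T-cell and NK-cell markers, 0 were members, and their sum was 39.1 to 54.1 CPM with DMSO and 21.1 to 23.9 CPM at 500 nM.

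The DUX4-like copies had 0 counts with DMSO, then 5.1, 0 and 0 at 150 nM and 57.4, 53.1 and 69.2 at 500 nM for every copy, at least 44.8-fold above a floor of 3 counts over the DMSO group. DUX4 itself is a double-homeobox transcription factor of the early embryo, encoded in the D4Z4 repeat that most adult cells keep silent. It had 0 counts with DMSO, then 0, 18.9 and 0 at 150 nM and 47.6, 22.6 and 0 at 500 nM, and it missed the rule through the last library. DUX2, another gene of the family, missed it on the DMSO side: it had 17, 3 and 11 counts with DMSO, then 141.6, 121.1 and 103.0 at 150 nM and 1516.7, 901.3 and 1092.3 at 500 nM. Its groups did not overlap, and the increase at 500 nM was 6.38 ± 0.20 (SE) on the log2 scale (edgeR adjusted p = 2.8e-14). DUXA was steady at 26.3 ± 1.12 CPM with DMSO and 26.2 ± 1.15 CPM at 500 nM (SD, n = 3). Division of reads among such copies is uncertain, and neither a single copy nor DUX4 itself can be named as the source of the reads.

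Both microRNA loci were read as fragments over a hairpin, which is not a measure of mature microRNA. MIR4651 had 1, 0 and 0 counts with DMSO and 19, 19 and 12 at 500 nM. Its hairpin lies on the same strand as POR, the cytochrome P450 reductase gene, whose exons it overlaps in GENCODE release 29 and whose own level was 43.4 ± 2.45 CPM with DMSO and 63.7 ± 3.66 CPM at 500 nM (SD, n = 3). Reads of the host cannot be told apart from reads of the hairpin there. MIR1324 had 0 counts with DMSO and 16, 11 and 18 at 500 nM. Exons of CLUHP10 overlap it on the same strand, so its reads cannot be told apart from those of CLUHP10 either. Besides MIR4651, the exons of 3 members overlap a gene of at least 1 CPM. These are CACNA1D with CHDH and GPRC5B with IQCK on the other strand, and TNFRSF25 with PLEKHG5 on the same strand. CHDH was lower at 500 nM, with a log2 fold change of -0.69 (edgeR adjusted p = 0.0013), while IQCK was higher by 0.70 (adjusted p = 0.026) and PLEKHG5 by 0.77 (adjusted p = 0.0075). In all, 27 of the 75 members matched in GENCODE shared exon sequence with another gene.

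Members just inside the rule were C1orf226 (10, 13 and 11 counts at 500 nM), CNRIP1 (27, 18 and 10) and CCDC154 (17, 19 and 10, after 3, 3 and 3 with DMSO). Just outside were ADAM23 (9, 16 and 14 at 500 nM), GABRG1 (31, 9 and 31) and TNFRSF8 (13, 9 and 13). GABRG1 and TNFRSF8 had 0 counts in all DMSO libraries and each failed by 1 library at 9 counts.

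At 150 nM most members were neither at 3 or fewer counts in all 3 libraries nor at 10 or more in all 3. P2RX1 alone among them had at least 10 counts in each library, 53 were in between and 24 still had at most 3 counts in each. Of the other 6681 genes silent with DMSO, 95.3% still had at most 3 counts in each library at 150 nM, and the only one to reach 10 in each was LOC101059948, with 16, 12 and 10. The number of members above 3 counts was 36, 28 and 22 in the 3 libraries at 150 nM, in the order of their depth. The count of 24 depended on the first of these libraries, and without it 40 members were at 3 or fewer. CXCL10, MIR4651 and FRAS1 had 0 counts in all 3 libraries at 150 nM.

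**Figure D2:**
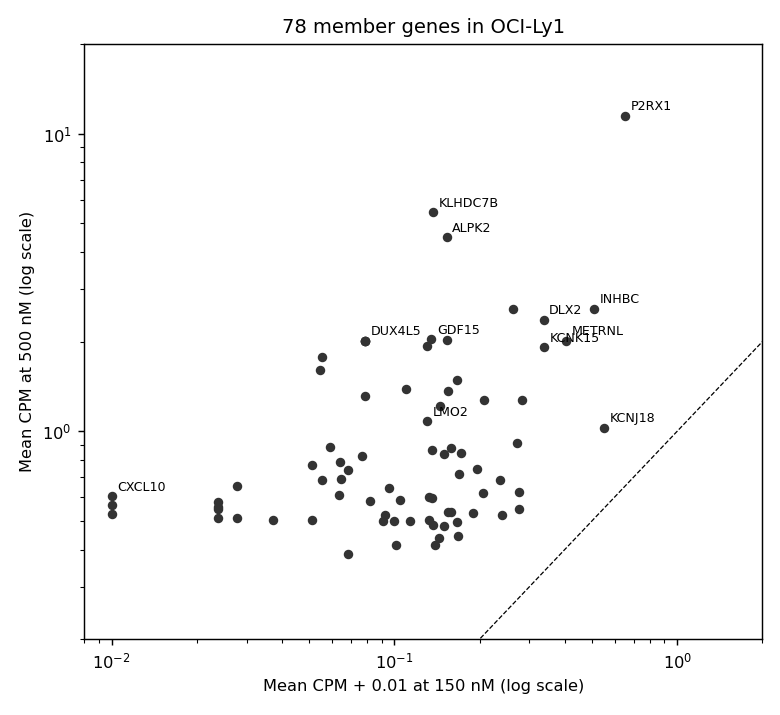
Mean CPM of each of the 78 members in OCI-Ly1 at 150 nM (x axis, plus 0.01) and at 500 nM (y axis), both on log scales, 1 point per gene and each a mean of 3 libraries; the dashed line marks equal values. All points lie above the line, and KCNJ18, with 0.541 CPM at 150 nM and 1.03 at 500 nM, lies closest to it among the labelled genes.

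Of the 64 members that passed edgeR's filter on low counts in OCI-Ly1, 64 were called higher at 500 nM against DMSO (edgeR quasi-likelihood test, adjusted p under 0.05), in a comparison that called 27.7% of all genes tested higher and 25.9% lower; the rule itself fixed that count. At 150 nM against DMSO 3 of the 64 were called higher (P2RX1, INHBC and KCNK15) and 0 lower, where 0.748% of all genes tested were called higher and 0.141% lower. The rule held the DMSO libraries low, so this contrast is not independent of it either. The count higher was 0 with limma on log2(TPM + 1), 6 without the filter and 1 without the second DMSO library. After adjustment DESeq2 called 3 higher and 0 lower at 150 nM, where it called 1.23% of all genes tested higher and 0.32% lower. At an unadjusted p under 0.05, edgeR gave 26 of the 64 higher and 0 lower. The unadjusted share over all genes is not given, and the limit on DMSO counts favours higher over lower, so nothing is read from that split.

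In TMD8 the same genes were a mixed group even before treatment. With DMSO 31 of the 78 had at least 10 counts in each TMD8 library, 27 had at most 3 in each and 20 were in between. Of the other 6681 genes silent in OCI-Ly1, 5.61% had at least 10 in each TMD8 library, against 39.7% of the members. Their summed level was 685 ± 12.9 CPM with DMSO, then 786.5 ± 5.06 CPM at 150 nM and 856 ± 8.58 CPM at 500 nM (SD, n = 3). At 500 nM 14 members were still at 3 or fewer counts in each library and 42 had 10 or more in each. These counts are not scaled for depth. The mean library total in TMD8 was 18561000 with DMSO, 15838900 at 150 nM and 12486600 at 500 nM, so a gene could stay at 3 or fewer more easily at 500 nM.

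**Figure D3:**
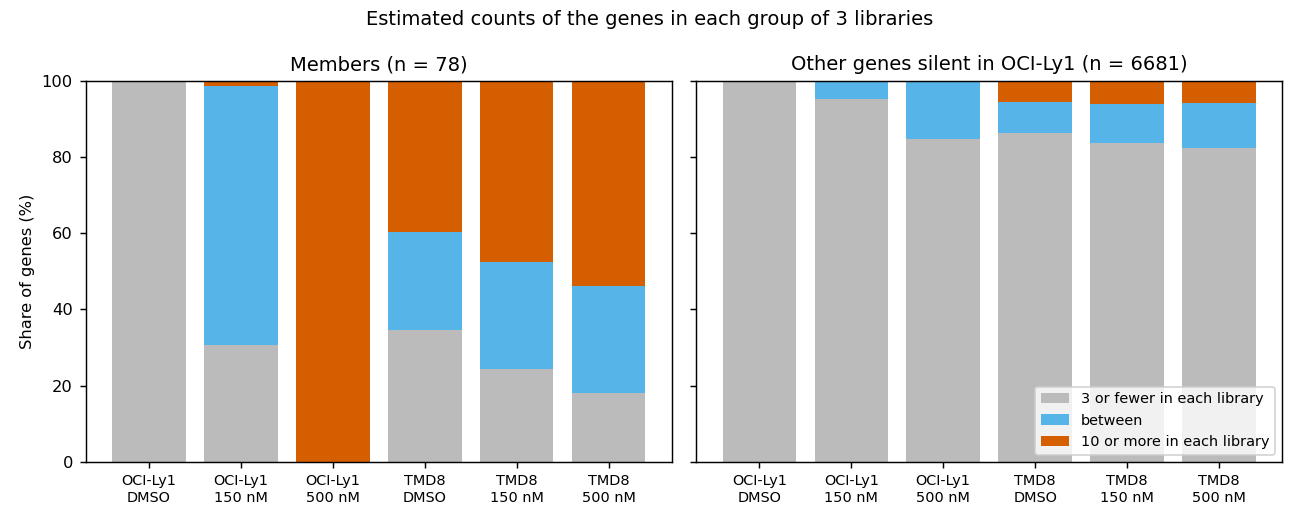
Share of genes (percent) with at most 3 counts in each of 3 libraries (grey), at least 10 in each (orange) or in between (blue), for the 78 members (left) and the 6681 other genes silent in OCI-Ly1 with DMSO (right), in each line and dose. The OCI-Ly1 bars with DMSO and, for members, at 500 nM are fixed by the rule; in TMD8 39.7% of members and 5.61% of the others are orange with DMSO.

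TMD8 libraries played no part in the choice of members, and there 48 of the 78 could be tested. Of the 30 that could not, 4 were the DUX4L copies, 11 had at most 3 counts in all 9 libraries and 3 (PTPRD, COL21A1 and CMPK2, counted among the 11) had 0 in all 9. At 500 nM against DMSO 32 of the 48 were called higher and 4 lower, where 29.9% of all genes tested were called higher and 30.7% lower. The median log2 fold change was 1.10 over the 48 and 0.04 over all genes tested. However, 17 of the 48 passed the low-count filter only through treated libraries, and all 17 were called higher, a direction that passing in that way favours. Among the 31 that pass on DMSO libraries alone, 15 (48.4%) were called higher and 4 (12.9%) lower, against 28.3% and 33.4% of all such genes and 33.4% and 25.4% of the 335 such genes among the others silent in OCI-Ly1. At 150 nM 23 of the 48 were called higher and 4 lower (19.2% and 25.0% of all genes tested). Among the 31 the numbers were 10 (32.3%) and 4 (12.9%), against 18.5% and 27.2% of all such genes and 27.2% and 14.9% of the 335, close to the shares of the latter. Of the 48, 23 were called higher at both doses, 3 were called lower at both and 0 were called in opposite directions. Both contrasts use the same DMSO libraries and the 48 include the 17, which favours such agreement. The share over all genes is not given, so nothing is read from these counts. Between 150 and 500 nM 21 were called higher at the higher dose and 3 lower (13.7% and 15.0% of all genes tested), and among the 31 the numbers were 10 (32.3%) and 3 (9.68%), against 13.5% and 16.2% of all such genes and 15.8% and 15.8% of the 335. On log2(TPM + 0.1) the split at 500 nM against DMSO was 25 higher and 10 lower, on a scale where the median of all genes tested moved to -0.31 and the calls were 11.5% higher and 49.3% lower.

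The members that rose most in TMD8 were also near silence there with DMSO. GDF15, NPPC, DLX2, DLL4 and INHBC are among the 17 members that passed the low-count filter only through treated libraries. Passing in that way favours a rise, so their calls and p-values describe the rise and are no independent support for it. GDF15 had 0, 1 and 1 counts with DMSO, then 59, 67 and 157 at 150 nM and 169, 154 and 107 at 500 nM, a rise of 7.95 ± 0.41 (SE) on the log2 scale at 500 nM (edgeR adjusted p = 2.7e-11). NPPC had 1, 2 and 2 counts with DMSO, then 39, 51 and 104 at 150 nM and 122, 102 and 76 at 500 nM, a rise of 6.27 ± 0.34 (adjusted p = 5.7e-11). In both genes the treated libraries were all far above the DMSO libraries at either dose, and in OCI-Ly1 both had at most 4 counts per library at 150 nM. DLX2 had 4, 8 and 1 counts with DMSO, then 27, 42 and 75 at 150 nM and 97, 74 and 63 at 500 nM, a rise of 4.60 ± 0.36 (adjusted p = 4.9e-09). DLL4 had 2, 3 and 11 counts with DMSO and 93, 72 and 56 at 500 nM, a rise of 4.24 ± 0.35 (adjusted p = 1.2e-08). INHBC had 1, 2 and 1 counts with DMSO, then 14, 5 and 10 at 150 nM and 9, 12 and 12 at 500 nM, and its rise from 0.0753 ± 0.0326 to 0.906 ± 0.317 CPM at 500 nM (SD, n = 3) was called (adjusted p = 9e-05). The fold changes of genes at 0 to 3 counts with DMSO depend on the small count that edgeR adds, and leaving out 1 library at a time gave 7.52 to 8.27 for GDF15.

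ESPN, an actin-bundling protein of hair-cell stereocilia, had 0, 2 and 0 counts in TMD8 with DMSO, then 2, 2 and 7 at 150 nM and 22, 13 and 12 at 500 nM. It rose by 4.76 ± 0.63 at 500 nM (edgeR adjusted p = 3.4e-06), and its call at 150 nM was lost with DESeq2, on both TPM scales, with a replicate block and without the first or the third DMSO library or the third library at 150 nM. MIR4651 had 1, 1 and 2 counts with DMSO and 22, 22 and 18 at 500 nM, while POR, the gene it overlaps, fell in TMD8 from 37.9 ± 0.847 to 31.4 ± 2.04 CPM (log2 fold change -0.28, edgeR adjusted p = 0.0029). ADC had 1, 2 and 3 counts with DMSO and 35, 27 and 17 at 500 nM. With GDF15, NPPC and ESPN these are the 5 genes that met the same silent-to-on rule in both lines. They were 6.41% of the 78 in OCI-Ly1 and 12.5% of the 40 that met it in TMD8. All 5 are among the 17 members that passed the low-count filter in TMD8 only through treated libraries, which favours a call of higher.

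Several members had a working level in TMD8 and rose from it. TP63 went from 928, 952 and 1079 counts with DMSO to 1183, 1330 and 1850 at 150 nM and 1688, 1636 and 1162 at 500 nM. The libraries differ in depth. Scaled for depth this was 55.5 ± 2.97, 89.8 ± 3.45 and 118 ± 5.70 CPM (SD, n = 3), with no overlap between groups and a log2 rise of 1.08 ± 0.06 at 500 nM (edgeR adjusted p = 2.4e-11). POU3F1 rose from 12.6 ± 1.54 to 31.5 ± 1.98 CPM and FOXD1 from 8.70 ± 0.987 to 18.9 ± 1.09 CPM at 500 nM (adjusted p = 7.5e-10 and 4.5e-08). P2RX1 rose from 5.55 ± 0.259 to 16.2 ± 0.427 CPM (adjusted p = 5.2e-09) and KLHDC7B from 6.19 ± 0.466 to 11.01 ± 0.908 CPM (adjusted p = 3.8e-06).

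Members that fell in TMD8 at 500 nM were RAB31, LMO2, GPRC5B and NRXN2. RAB31 went from 30, 35 and 29 counts with DMSO to 15, 17 and 9 at 150 nM and 5, 2 and 1 at 500 nM, a log2 fold change of -3.04 ± 0.45 (edgeR adjusted p = 1.5e-05). LMO2 stood at 55.1 ± 0.875 CPM with DMSO and reached 43.8 ± 5.89 at 150 nM and 19.9 ± 1.12 at 500 nM (SD, n = 3), a log2 fold change of -1.47 ± 0.09 at 500 nM (adjusted p = 1.4e-10). GPRC5B, an orphan G protein-coupled receptor, went from 39.2 ± 3.42 to 21.0 ± 1.29 CPM at 500 nM (log2 fold change -0.90 ± 0.09, adjusted p = 9.9e-08). In these 3 genes the 500 nM libraries were all below the DMSO libraries in CPM, while in OCI-Ly1 the 500 nM libraries were all above. Over the 48 members tested, the 500 nM libraries all lay above the DMSO libraries in 31 and below in 5. Over all genes tested in TMD8 the shares were 33.1% and 33.3%. The 48 include the 17 that passed the low-count filter only through treated libraries, which favours the count above, and no count without them is given. In OCI-Ly1, where the rule fixed the order, the same shares over all genes were 31.4% and 29.4%. At 150 nM the change was -1.03 for RAB31 (adjusted p = 0.014), a call lost with DESeq2 and without the third library at 150 nM. For GPRC5B it was -0.25 (adjusted p = 0.018), a call lost with library size alone and without the third DMSO library or the second or the third library at 150 nM. NRXN2, a neurexin of synapses, had 33, 31 and 32 counts with DMSO and 10, 16 and 16 at 500 nM, a log2 fold change of -0.70 ± 0.29 whose adjusted p of 0.044 lay near the threshold and was lost with DESeq2, with library size alone, with a replicate block and without the first or second DMSO library or the first or second library at 500 nM (range with 1 library left out -0.98 to -0.37).

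Some other members were not called in TMD8 at 500 nM, were called with a small change or could not be tested. ITGB2 was at 23.96 ± 1.53 CPM with DMSO and 22.5 ± 2.69 CPM at 500 nM (SD, n = 3; log2 fold change -0.10, edgeR adjusted p = 0.35). The list of 10 myeloid markers summed to 1.44 to 2.34 CPM in TMD8 with DMSO and 3.92 to 4.60 CPM at 500 nM, with 3 tested, 1 called higher and S100A8 and S100A9 at 0 throughout; its part in the ITGB2 values was not tested. CXCL10 was at 21.8 ± 2.50 CPM with DMSO, then 13.6 ± 2.49 at 150 nM and 18.2 ± 0.663 at 500 nM, lower at 150 nM by a log2 fold change of -0.69 (adjusted p = 7.5e-05) and not called at 500 nM (adjusted p = 0.060), though called without the third DMSO library (-0.31) and without the filter (-0.27). ALPK2, the third most abundant member in OCI-Ly1 at 500 nM by CPM, stood at 1.22 ± 0.408 and 1.13 ± 0.439 CPM (adjusted p = 0.70). HAPLN3 was at 2.66 ± 0.661 and 1.82 ± 0.527 CPM (adjusted p = 0.12). CAV1 was called higher by 0.31 ± 0.07 on the log2 scale (adjusted p = 0.0012), but on both TPM scales its change was below 0, at -0.12 on log2(TPM + 0.1). ITGB2, HAPLN3 and CXCL10 were called lower on both TPM scales, by -0.46, -0.83 and -0.62 on log2(TPM + 0.1), against the median of -0.31 over all genes on that scale. METRNL, with 1 count over all 9 TMD8 libraries, and KCNJ18, KCNK15 and CNRIP1 were too low to be tested.

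**Figure D4:**
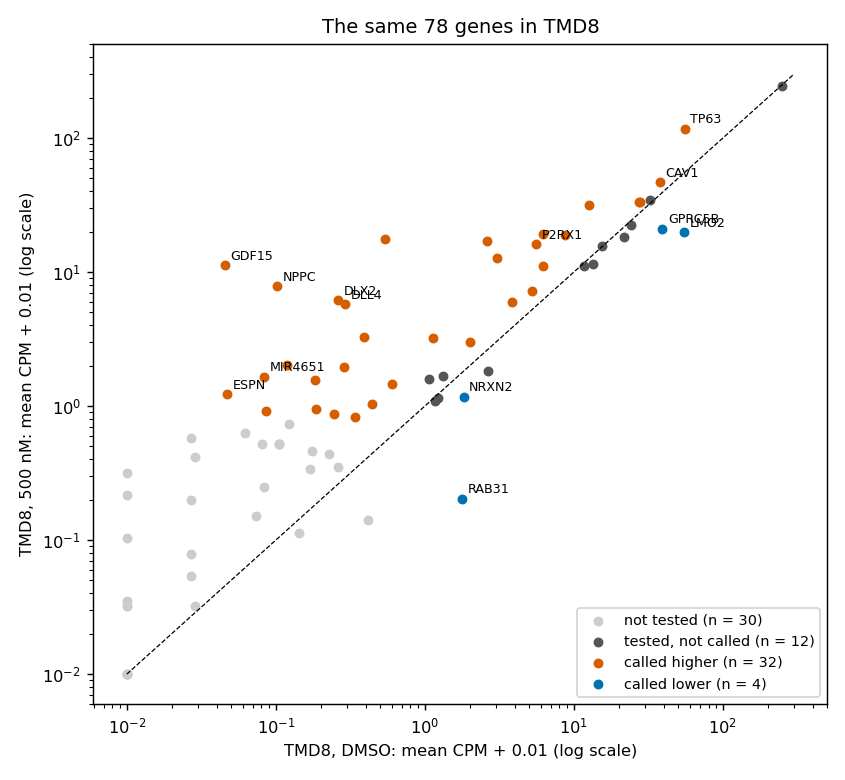
Mean CPM plus 0.01 of the 78 members in TMD8 with DMSO (x axis) and at 500 nM (y axis), log scales, 1 point per gene and each a mean of 3 libraries; the dashed line marks equal values and colours give the edgeR call. The 32 orange points lie above the line, the 4 blue points (RAB31, LMO2, GPRC5B and NRXN2) below it, and 30 genes in light grey could not be tested.

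Gene lists written for lymphoma cells and this inhibitor took in 19 of the 78 members and left 59 in none. Developmental transcription factors had 5 members of 167 listed genes silent with DMSO (DLX2, DLX3, FOXD1, POU3F1 and TBX21). Cytokines and growth factors had 5 of 151 (CXCL10, EDN2, GDF15, GDF7 and INHBC), ion channels 4 of 129 and matrix genes 2 of 72. Some large lists built on symbol patterns had 0 members among their silent genes. These were cancer-testis and germ-cell genes (0 of 151 silent genes), olfactory and taste receptors (0 of 374) and epithelial genes (0 of 216). The patterns do not take in every gene of such a kind, and the testis histone HIST1H1T and the basal-epithelium factor TP63, both members, lie outside them. Over all silent genes the share was 1.15%. The list of integrated stress response genes had 4 silent genes, of which GDF15 was a member, and 31 of its 31 tested genes were called higher in OCI-Ly1 at 500 nM. Of 33 heterochromatin and silencing genes tested, 8 were called higher and 12 lower in OCI-Ly1 at 500 nM; in TMD8 the numbers were 4 and 22. Of 23 JmjC demethylase genes tested, 16 were called higher and 2 lower in OCI-Ly1; in TMD8 the numbers were 13 and 4. Beside these counts stand 27.7% higher and 25.9% lower over all genes tested in OCI-Ly1 and 29.9% and 30.7% in TMD8, so that the 8 of 33 higher in OCI-Ly1 lie near the share of all genes.

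Promoter sequence, from 250 bases before to 50 after the RefSeq start, was at hand for 47 members. By a CpG observed-to-expected ratio of at least 0.6 and a GC content of at least 55%, 28 of the 47 (59.6%) were CpG-rich, against 30.2% of 3656 promoters of other genes silent in OCI-Ly1 and 70.7% of 11564 promoters of genes tested in that line. Their median GC content was 67.7%, against 55.3% and 64.7%. The ATF4 and CHOP composite element printed above was found in 3 of the 47 (6.38%; ALPK2, KLHDC7B and S100P) and in 3.67% of all 27305 promoters of this length, with 4.16% of the other silent and 1.94% of the tested genes. The TATA box was found in 10.6% of members and 11.95% of all promoters, with 18.4% of the other silent and 6.43% of the tested genes. The xenobiotic response element GCGTG was found in 42.6% of members and 36.3% of all promoters, and the members lay between the other silent genes (29.6%) and the tested genes (49.4%). The metal response element TGCNCNC was found in 61.7% of members and 55.2% of all, with 54.7% of the other silent and 62.2% of the tested genes. The E-box CACGTG, in 8.51% of members and 7.43% of all, also lay between the other silent (6.04%) and the tested genes (9.91%). The CCAAT box was found in 36.2% of members and 35.7% of all, with 35.1% of the other silent and 36.9% of the tested genes. The heat shock element GAANNTTC was found in 6.38% and 6.87% (7.28% and 4.96% in the same comparison groups), the cAMP response element TGACGTCA in 2.13% and 1.98% (1.31% and 3.10%), and the AP-1 element TGACTCA in 0 of 47 and 4.92% (5.09% and 3.26%). Both strands were searched, TGACGTCA and GCGTG can share letters with other motifs, and a match is a description of letters only.

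Members were mostly scattered over the genome. On RefSeq's map the largest number on 1 chromosome was 9, on chromosome 17. The only pairs consecutive by start position were DUX4L6 with DUX4L5 and DUX4L3 with DUX4L2. Other members also lay close together. Exons of ESPN and TNFRSF25 overlap on opposite strands in GENCODE, and COL21A1 and BEND6 flank the same gene, DST. Of 90 tested genes that flank a member and are not members, 32 (35.6%) were called higher in OCI-Ly1 at 500 nM and 18 lower. That comparison called 27.7% of all genes tested higher and 25.9% lower. The 32 include POR, PLEKHG5, IQCK and RIMS4, whose exons overlap a member, and DUX4, whose reads may be divided with the DUX4L copies. CHDH, which also overlaps a member, is among the 18. The part of shared reads in these counts was not tested.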

How the data were processed

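Total RNA freed of ribosomal RNA was made into technical triplicate libraries, read from both ends, per the labels' protocols. The authors deposited estimated counts and TPM per gene symbol, 1 table of each per line. The submitters' processing notes list kallisto 0.46.0, R 4.3.1, DESeq2 1.40.2 and hg19, without roles. The deposited estimated counts were rounded to whole numbers for count tests, and the deposited TPM served for length-scaled levels and alternatives. edgeR 4.0.16 in R 4.3.3 (quasi-likelihood test, TMM, filterByExpr) was fitted to the 9 libraries of a line, with Benjamini-Hochberg adjustment over 15638 genes in OCI-Ly1 and 15363 in TMD8. The fit was tested on simulated data. Counting intervals are exact at 95% and cover counting error only. For a fold against a group at 0, that group was set to 3 counts, without counting error in the other group. Alternatives were DESeq2 1.42.0, limma 3.58.1 on log2(TPM + 0.1) and log2(TPM + 1), other scalings, no filter, a replicate block and leaving out each library.

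The members and all gene lists were chosen with earlier results of these data known. Genes were named by fixed rules: the 12 highest members at 500 nM and the 6 highest at 150 nM in OCI-Ly1, the 8 largest rises and 5 largest falls called in TMD8, the top 3 of each list with 2 or more members, those meeting the rule in both lines, the 5 highest in TMD8 with DMSO, and 3 on each side of the threshold. A few genes that these rules or the marker lists name are not reported here. Other members and the role classes were picked after their values were seen. RefSeq names, promoters and positions are on GRCh38.p14, not the submitters' build.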

Additional observations from a re-analysis of the deposited data

Results flagged for a closer look

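For 5 members every 500 nM library stood above every DMSO library in OCI-Ly1 and below every DMSO library in TMD8, in CPM. Values are given here for 4 of them. The rule chose the rise in OCI-Ly1, so the difference between the lines was not tested. The TMD8 log2 fold change at 500 nM against DMSO was -3.04 for RAB31, -1.47 for LMO2 and -0.90 for GPRC5B, all called lower by edgeR. It was -0.25 for CXCL10, which was not called.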

How the results depend on the processing

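The number of members followed the thresholds: 19 with 0 counts required in each DMSO library, 134 with up to 5 allowed, 27 with at least 20 required at 500 nM, 177 with at least 5, and 42 by TPM (at most 0.1 with DMSO and at least 0.5 at 500 nM), of which 26 are among the 78. Leaving out 1 library gave 83 to 108. In TMD8 at 500 nM the 32 members called higher became 25 on both TPM scales, 30 with DESeq2 and 42 without the filter, and the 4 called lower became 10 on both TPM scales. At 150 nM the number lower was 2 to 4 with 1 library left out, the lowest without the third library at 150 nM. Between doses, the number higher was 11 on log2(TPM + 0.1) and 12 on log2(TPM + 1), and the number lower was 6 on both and 5 without the filter. In OCI-Ly1 at 150 nM the number higher was 0 on log2(TPM + 1), 6 without the filter and 1 to 3 with 1 library left out, the lowest without the second DMSO library. The cause of these shifts was not tested, except that fewer libraries or no filter change the genes and libraries that enter. Replicate numbers did not pair the libraries (correlations of same-numbered deviations were of both signs), and with a replicate block the calls at 500 nM in TMD8 were 32 higher and 5 lower, at 150 nM 22 and 4, between doses 21 and 3, and in OCI-Ly1 at 150 nM 3 and 0. Of 598 alternative values for 23 named genes in TMD8, 558 kept direction and call, 20 lost the call, 9 gained it and 11 changed sign, all but those of CAV1 at 500 nM in genes without a call. Those sign changes at 500 nM were CAV1 at -0.12 and -0.11 on the TPM scales, and ALPK2, which ran from -0.46 to 0.10 with 1 library left out. At 150 nM they were ALPK2 at 0.0097 with library size alone and -0.28 to 0.18 with 1 library left out, ITGB2 at -0.057 and -0.050 on the TPM scales, and CAV1 at 0.025 with library size alone and -0.13 to 0.017 with 1 library left out. With 20.5 counts in the median member, 1 library can decide whether a gene meets the rule.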
